A study of Mus musculus with 16 samples.

Results

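Heat shock proteins and cytosolic chaperones were followed as 36 genes, picked by gene symbol from the 45706 genes of the count table. All 36 were found and all 36 passed the filter on low counts in every comparison. They comprised 5 HSP70 chaperones, 3 members of the HSP110 family, 2 HSP90 chaperones, 7 J-domain proteins, 7 HSP90 co-chaperones, 2 BAG co-chaperones, 3 subunits of the chaperonin CCT, 3 mitochondrial chaperones, 2 small heat shock proteins and 2 heat shock transcription factors. The mice, on a C57Bl/6N background and fed chow, carried the allele ROSA-STOP-L10a-bactrap, which after Cre recombination makes a GFP-tagged ribosomal protein L10a in neurons that express prepronociceptin (PNOC). Hypothalami were taken in the random-fed state at 12 weeks of age by the treatment label and 10 to 12 weeks by the extraction protocol, and each pool held tissue from 4 animals. Pools 1 to 4 were labelled Control (Lepr-flox) and pools 5 to 8 Pnoc Lepr deletion, and each pool gave an input library (RNA of the whole lysate) and a pulldown library (RNA held by GFP-tagged ribosomes). The 4 groups thus had 4 libraries each and 16 in all, and input and pulldown of a pool came from the same lysate. The labels used here do not state the Cre line, whether the control animals carried Cre beyond what tagging requires, the sex of the animals, or which part of Lepr is removed; the tag marks any hypothalamic cell in which Cre was active at some time.

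Chaperones bind unfolded stretches of other proteins and release them in cycles driven by ATP. HSP70 takes up clients that J-domain proteins deliver, nucleotide exchange factors of the HSP110 and BAG families reset it, and clients such as steroid receptors and kinases pass on to HSP90 with the help of co-chaperones. Heat shock factor 1, encoded by Hsf1, binds repeats of the unit GAA and its complement TTC, called heat shock elements, in the promoters of the inducible genes; neurons are known for high constitutive Hsc70 and HSP90 and for a weak induction of the inducible HSP70.

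Promoter sequence was at hand for 29 of the 36 members, from RefSeq on GRCm38.p6, as the 250 bases before each annotated start; Hspa8, Hspa9, Hsf1, Hsp90aa1, Hsp90ab1, Cryab and St13 had no entry. A pair of facing units, GAANNTTC or TTCNNGAA searched on both strands, lay in this window in 11 of the 29 members (37.9%), namely Hspa1a, Hspa1b, Hspb1, Hsph1, Hspd1, Hspe1, Dnaja1, Dnajb4, Dnajb6, Cct2 and Fkbp4. The same search matched 14.5% of 27025 genes. A run of 3 units, GAANNTTCNNGAA or TTCNNGAANNTTC, was found for Hspd1, Hspe1 and Dnajb6, 10.3% of the members against 0.514% of all genes; these matches are also counted among the pairs. The box CCAAT was present in 41.4% of the members and 37.5% of all genes, and TATAAA in 3.45% and 14.3%. The windows below are shown because they belong to the inducible Hspa1a and Hspa1b, to Dnajb1, Fkbp4 and Hsph1, the members that differed between genotypes, and to Hspb1 and Hspe1, which were lower and higher in pulldown than in input. Capitals mark a pair or a run of heat shock units, except in Dnajb1, whose window held none and where they mark ATTGG, the CCAAT box on the other strand.
Hspa1a, chr17:34972157-34972406, minus strand: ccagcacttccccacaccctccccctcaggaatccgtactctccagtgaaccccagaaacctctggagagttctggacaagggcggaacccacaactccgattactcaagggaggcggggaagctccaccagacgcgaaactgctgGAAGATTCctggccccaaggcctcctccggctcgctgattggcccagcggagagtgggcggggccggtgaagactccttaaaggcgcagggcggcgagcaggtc
Hspa1b, chr17:34959239-34959488, minus strand: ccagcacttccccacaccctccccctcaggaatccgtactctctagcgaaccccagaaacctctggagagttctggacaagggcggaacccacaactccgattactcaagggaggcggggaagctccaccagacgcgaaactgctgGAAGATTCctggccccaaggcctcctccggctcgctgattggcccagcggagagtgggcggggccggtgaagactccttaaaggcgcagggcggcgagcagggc
Dnajb1, chr8:83607925-83608174, plus strand: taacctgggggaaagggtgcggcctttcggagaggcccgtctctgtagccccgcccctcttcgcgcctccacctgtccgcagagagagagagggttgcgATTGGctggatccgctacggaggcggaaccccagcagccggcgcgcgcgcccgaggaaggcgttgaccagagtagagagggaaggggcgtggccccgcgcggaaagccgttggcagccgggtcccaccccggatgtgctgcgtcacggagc
Fkbp4, chr6:128438657-128438906, minus strand: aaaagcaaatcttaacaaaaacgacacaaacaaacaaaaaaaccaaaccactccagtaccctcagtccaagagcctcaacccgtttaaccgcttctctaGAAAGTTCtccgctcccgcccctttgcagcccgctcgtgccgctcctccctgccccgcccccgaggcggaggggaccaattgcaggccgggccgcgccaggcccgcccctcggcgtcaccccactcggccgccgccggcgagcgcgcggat
Hspb1, chr5:135887769-135887918, plus strand: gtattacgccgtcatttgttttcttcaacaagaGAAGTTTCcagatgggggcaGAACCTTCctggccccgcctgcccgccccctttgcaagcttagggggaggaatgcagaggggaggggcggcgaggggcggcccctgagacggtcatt
Hsph1, chr5:149636352-149636381, minus strand: tgggtagaatctTTCTCGAAggctcgagaa
Hspe1, chr1:55088053-55088082, plus strand: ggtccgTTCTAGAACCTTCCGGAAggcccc
The Hspa1a and Hspa1b windows were identical at 247 of 250 bases (98.8%), and the genes are known as near-identical copies. The transcripts were not compared here, and the split of reads between the copies is uncertain. The stretch shown for Hspe1 also lies in the window of Hspd1, which is transcribed from the same region in the opposite direction. A match describes letters only and is not evidence that a factor binds.

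Library totals ran from 64435952 to 78623636 estimated counts, and the members took up 0.945% ± 0.0458 of the counts in control input and 1.65% ± 0.0688 in control pulldown (SD, n = 4 each), and 1.06% ± 0.0464 and 1.79% ± 0.0935 in deletion input and pulldown. Mitochondrial ribosomal RNA made up 27.3% ± 0.581 of control input, 24.5% ± 0.973 of deletion input and means of 0.0752% and 0.0649% of control and deletion pulldown. Levels are given as CPM, estimated counts relative to library size after TMM scaling over the 16 libraries, unless stated. Neuron markers were higher in pulldown for 7 of 7 genes and astrocyte and oligodendrocyte markers lower for 8 of 8 and 7 of 7. Lepr stood at 1.42 to 1.86 CPM in control pulldown and 2.42 to 2.82 CPM in pulldown labelled Lepr deletion; as a count over the whole gene it does not check the removal of a part. Genotypes are therefore named as labelled. For the 36 members, pool 1 stood above the other control pools and pool 5 below the other deletion pools: the median offset from the control mean in pulldown was 0.089 (log2) in pool 1 against -0.051 to -0.005 in pools 2 to 4, and 0.056 in pool 5 against 0.166 to 0.178 in pools 6 to 8. Results that rest on these pools are given with and without them.

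Per transcript length (TPM), Hspa8 and the HSP90 genes led. In control pulldown Hspa8, the constitutive cytosolic HSP70, stood at 2763 ± 91.4 TPM, Hsp90aa1 at 2637 ± 127 and Hsp90ab1, the constitutive HSP90, at 2158 ± 21.7 (SD, n = 4). The ranges of Hspa8 and Hsp90aa1 overlapped, and Hsp90ab1 lay below both. These 3 genes held 49.2% of the summed member TPM in control pulldown, 46.8% in control input, 46.9% in deletion input and 49.3% in deletion pulldown. The J-domain gene Dnaja1 followed at 977 ± 36.8 TPM and Hsph1, an HSP110 exchange factor, at 838 ± 35.0 TPM. At the low end of control pulldown were the small heat shock gene Hspb1 at 2.71 ± 0.761 TPM, Hspa2 at 2.98 ± 0.480 TPM and the inducible Hspa1a and Hspa1b at 5.76 ± 1.16 and 0.904 ± 0.123 TPM. Of the 35 pairs of neighbours in the order of means, 19 did not overlap in control pulldown, 13 in control input, 11 in deletion input and 9 in deletion pulldown, so the middle of the order is not resolved.

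**Figure D1:**
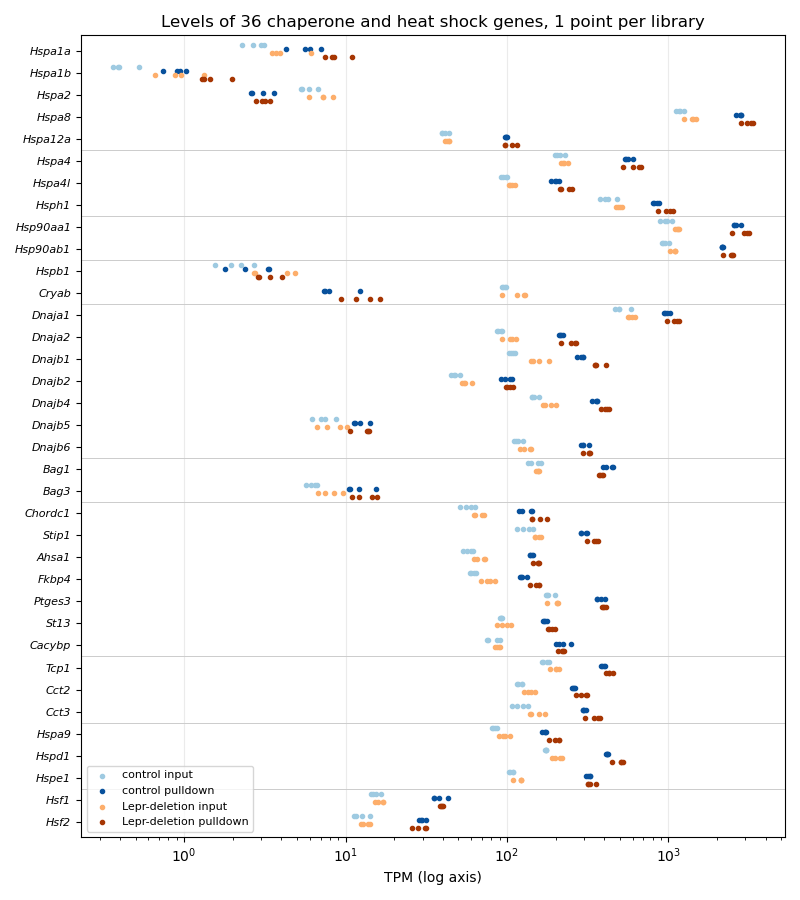
TPM of the 36 members on a log axis, 1 point per library, by group (4 libraries each). Hspa8, Hsp90aa1 and Hsp90ab1 lead in every group, and Hspa1b is the lowest in control pulldown at 0.904 ± 0.123 TPM.

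Ribosome pulldown was first set against input within the control genotype, which asks which chaperone transcripts are more or less abundant on tagged ribosomes than in the whole hypothalamus. Most members were modestly higher in pulldown, led by the mitochondrial co-chaperonin gene Hspe1, and 4 were lower, led by Cryab. With edgeR's quasi-likelihood test and Benjamini-Hochberg adjustment over 17570 genes, 22 members were higher, against 30.1% of all genes tested, and 4 were lower, against 34.6%. The median log2 fold change was 0.20 over the members and -0.02 over all genes tested. In bulk RNA a transcript carried by fewer cells cannot be told apart from one with less RNA per cell.

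Cryab, which encodes the small heat shock protein alpha-B crystallin and is known from oligodendrocytes and astrocytes, showed the largest difference of all members. Control input pools 1 to 4 held 76.1, 75.1, 78.7 and 79.1 CPM and the matching pulldowns 5.20, 3.00, 3.03 and 3.16 CPM. Pulldown was lower by a wide gap with no overlap, a log2 fold change of -4.44 (SE 0.15, adjusted p = 3.79e-10). The 7 oligodendrocyte markers summed to 1109 to 1436 CPM in control input and 121 to 141 CPM in pulldown, and the 8 astrocyte markers to 2466 to 2809 and 136 to 155 CPM; their part in the Cryab difference was not tested. Cryab overlaps its neighbour Hspb2, and whether counting used strand is not given in the sources used here. Hspa2, an HSP70 best known from the testis, was at 11.2, 13.0, 10.1 and 10.2 CPM in control input and 3.63, 2.50, 2.99 and 2.52 CPM in pulldown, again without overlap (log2 fold change -1.95, SE 0.13, adjusted p = 1.4e-07). Hspb1, the small heat shock protein HSP27, known from vessels and glia, was low throughout, at 1.54, 1.29, 0.905 and 1.12 CPM in control input and 0.998, 0.684, 0.966 and 0.505 CPM in pulldown. These groups overlapped, and the fold change of -0.64 (SE 0.26, adjusted p = 0.0486) was just past the threshold. It lost it without control input pool 1, 2 or 4 or control pulldown pool 2 or 4. On log2(TPM + 1) it turned positive, 0.24, where the median of all genes tested was 0.63. Vascular markers, of which 5 of 6 tested were lower in control pulldown, summed to 36.5 to 50.1 CPM in input and 2.48 to 5.52 CPM in pulldown, with Cldn5 at 0 in all 4 control pulldowns; their part was not tested. Dnajb5, a J-domain gene, was the fourth lower member at -0.38 (SE 0.10, adjusted p = 0.00454). It was called higher on log2(TPM + 1), at 0.68 (adjusted p = 0.000184 in limma), and on log2(TPM + 0.1), at 0.74 (0.000169). With library totals it gave 0.17 (0.122). The median of all genes tested was itself 0.63, 0.89 and 0.53 in these settings, against -0.02 in the fit reported.

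Among the higher members, Hspe1 was at 49.0, 51.4, 52.2 and 48.3 CPM in control input and 80.6, 77.2, 73.2 and 73.3 CPM in pulldown, with no overlap (log2 fold change 0.58, SE 0.05, adjusted p = 6.94e-07). Cacybp, which encodes a protein that binds calcyclin and HSP90, followed with 125, 119, 121 and 109 CPM in input and 192, 177, 160.3 and 163 CPM in pulldown (0.53, SE 0.06, adjusted p = 1.35e-05). Bag1, an exchange factor for HSP70, had 144, 128, 141 and 121 CPM in input and 212, 203, 188 and 174 CPM in pulldown (0.52, SE 0.07, adjusted p = 3.85e-05). Neither pair of groups overlapped. Hsp90aa1, the inducible HSP90 gene, rose by 0.51 (SE 0.05, adjusted p = 3.62e-06) from 2125, 2069.8, 1979 and 1902 CPM to 3210.0, 2854, 2826 and 2769 CPM, while its constitutive partner Hsp90ab1 rose by 0.20 (SE 0.04, adjusted p = 0.000432) from 1819.6, 1758, 1719 and 1683 to 2108, 2007, 1999 and 1982 CPM. For both genes every pulldown library was above every input library.

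Within the HSP70 group, Hspa8 rose by 0.24 (SE 0.04, adjusted p = 0.000304), from 1949, 1894, 1775 and 1852 CPM in input to 2359, 2236, 2112 and 2221 CPM in pulldown, and the distant relative Hspa12a by 0.29. The inducible Hspa1a and Hspa1b showed 0.08 (SE 0.15, 95% interval -0.24 to 0.41) and 0.13 (SE 0.20, -0.32 to 0.58), with adjusted p of 0.648 and 0.59. Among the HSP110 exchange factors Hspa4 passed at 0.30, whereas Hspa4l (0.08) and Hsph1 (-0.04) did not. Of 7 J-domain genes 5 were higher, from Dnajb1 at 0.44 and Dnajb6 at 0.37, a suppressor of aggregation, to Dnaja1 at 0.16, which turned to -0.029 (adjusted p = 0.763) on length-scaled counts. All 3 CCT subunits, which fold actin and tubulin, passed with 0.12 (Cct2), 0.18 (Cct3) and 0.20 (Tcp1), although Tcp1 overlaps its neighbours Mrpl18 and Acat3. Of 7 HSP90 co-chaperones, Cacybp, Ahsa1 (0.30), Chordc1 (0.21) and Stip1 (0.20), which links HSP70 to HSP90, passed, and Fkbp4, Ptges3 and St13 (0.10, adjusted p = 0.0529) did not. With input and pulldown paired by pool as a block, St13 (adjusted p = 0.0090) and the J-domain gene Dnajb2 (0.11, adjusted p = 0.0214) also passed. Hspd1, the mitochondrial chaperonin HSP60, rose by 0.27 from 309, 312, 312 and 307 CPM to 399, 373, 375 and 372 CPM without overlap. Hsf1 itself passed at 0.33 (SE 0.08, adjusted p = 0.00231), from 24.3, 23.0, 21.5 and 22.1 CPM to 29.8, 32.8, 26.9 and 26.2 CPM, and Hsf2 at 0.28.

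How many members were higher depends on the scaling. Scaled by library totals alone, the median of all genes moved by 0.55, 32 members were higher and 2 lower, beside 60.9% of all genes tested higher and 19% lower, so that 76.2% of all calls were higher rather than 46.5%. On log2(TPM + 1) 33 members were higher and 2 lower, beside 64.9% and 12.5% of all genes, and 83.9% of calls were higher. The member median stayed above that of all genes in each case, by 0.22 in the fit reported, 0.22 with library totals, 0.55 on log2(TPM + 1) and 0.30 on log2(TPM + 0.1).

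**Figure D2:**
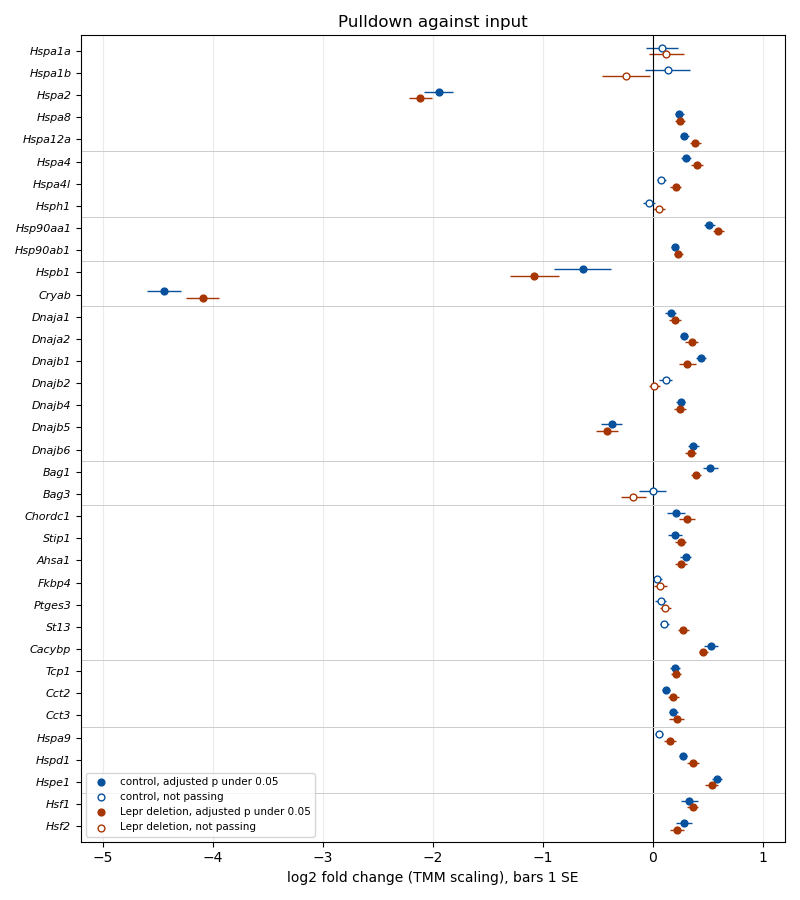
Log2 fold change of pulldown over input for the 36 members in both genotypes, with bars of 1 SE and filled points for an adjusted p under 0.05. Cryab (-4.44 in control) and Hspa2 (-1.95) stand at the low end and Hspe1 (0.58) at the high end in control.

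In the deletion genotype the same comparison called 25 members higher (28.8% of 17423 genes tested) and 4 lower (32.8%), with a member median of 0.23 against -0.01 for all genes. The same 22 higher and 4 lower members passed in both genotypes. The share of all genes that passed in both was not computed, so this overlap is not shown to be particular to the members. Hspa4l (0.21), St13 (0.28) and the mitochondrial HSP70 gene Hspa9 (0.15, adjusted p = 0.0206) passed in the deletion libraries in addition, while Hspa1a, Hspa1b, Hsph1, Dnajb2, Bag3, Fkbp4 and Ptges3 passed in neither. With the block by pool, Bag3, an exchange factor induced by stress, passed as lower in the deletion libraries (-0.18, adjusted p = 0.0447). Cryab was lower by a log2 fold change of -4.09 (SE 0.15), from 89.5, 93.1, 97.8 and 69.7 CPM in input to 3.81, 5.84, 6.44 and 4.51 CPM in pulldown. Hspa2 stood at -2.11, from 10.9, 14.5, 12.8 and 12.8 CPM to 3.07, 2.99, 3.19 and 2.60 CPM. The small heat shock gene Hspb1 went from 1.52, 2.23, 2.62 and 1.44 CPM to 0.828, 0.984, 0.813 and 1.11 CPM without overlap, a fold change of -1.08 (SE 0.23, adjusted p = 0.000958). At the other end Hsp90aa1 led with 0.59 (SE 0.05), from 2011, 2041, 2001 and 2028 CPM to 2758, 3104, 3205 and 3220.2 CPM. Hspe1 followed at 0.53, from 49.8, 52.0, 53.8 and 53.1 CPM to 77.1, 84.3, 72.0 and 70.8 CPM. Next came Cacybp at 0.46, Hspa4 at 0.40 and Bag1 at 0.39. Every pulldown library exceeded every input library for these genes. In this genotype Cacybp was at 120.5, 122, 127 and 123 CPM in input and 164, 178, 174 and 165 CPM in pulldown, and Bag1 at 131, 126, 132 and 131 CPM and 179, 177, 167 and 161 CPM.

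Deletion was then compared with control within pulldown, setting ribosome-bound RNA of pools labelled Lepr deletion against that of pools labelled Control. Dnajb1, Hsph1 and Fkbp4 were higher in the libraries labelled Lepr deletion, by 0.26 to 0.33 on the log2 scale, and no member was lower. These 3 of 36 compare with 0.391% of 16859 genes tested that were called higher and 0.249% called lower. Of the members 32 had a positive value, against 47.6% of all genes, and their median was 0.15 against -0.01. Unadjusted p was under 0.05 for 20 members, 19 of them with a positive value and Bag1 with a negative one, where 3340 of all genes reached that level. In 11 members every deletion pulldown exceeded every control pulldown (5.1% of all genes): Hspa1a, Hspa1b, Hspa4l, Hsph1, Dnajb1, Dnajb4, Ahsa1, Fkbp4, Cct3, Hspa9 and Hspd1.

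Dnajb1 (ENSMUSG00000005483, chromosome 8, 83608175 to 83612653 on GRCm38.p6) encodes HSP40, the J-domain partner of inducible HSP70. Control pulldown pools 1 to 4 held 257, 253, 233 and 251 CPM and deletion pulldown pools 5 to 8 held 306, 305, 343 and 288 CPM. The groups did not overlap, with a log2 fold change of 0.33 (SE 0.05, 95% interval 0.22 to 0.45, adjusted p = 0.0346 by edgeR). Fkbp4 (ENSMUSG00000030357, chromosome 6, 128430103 to 128438656), an immunophilin that works with HSP90 on steroid receptors, was at 108, 101, 102 and 110.0 CPM in control and 117, 129, 129 and 127 CPM in deletion pulldown. All deletion values were above all control values (0.26, SE 0.05, adjusted p = 0.0487). Hsph1 (ENSMUSG00000029657, chromosome 5, 149616843 to 149636498), an inducible exchange factor for HSP70, had 681, 667, 612 and 623 CPM in control and 698, 791, 825 and 778 CPM in deletion pulldown. Pool 5 was the closest to control, and the groups did not overlap (0.27, SE 0.05, adjusted p = 0.0494). Each of the 3 calls depends on single libraries: Dnajb1 passed in 3 of the 8 fits that leave out 1 pulldown library, with adjusted p from 0.014 to 0.133, and Hsph1 and Fkbp4 in 2 of 8 each. None of the 3 passed without control pool 2, 3 or 4 or deletion pool 6 or 7, whereas 12 members passed without pool 1 and 16 without pool 5. Calls over all genes went from 108 to 556 (262 higher, 294 lower) without pool 1 and to 1262 (631 higher, 631 lower) without pool 5. On length-scaled counts and on TPM values none of the 3 passed.

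The inducible HSP70 copies had the largest positive values without passing the adjusted threshold. Hspa1a (ENSMUSG00000091971, chromosome 17, 34969359 to 34972156) was at 7.24, 8.19, 4.97 and 6.40 CPM in control and 8.70, 9.70, 12.2 and 9.40 CPM in deletion pulldown (0.59, SE 0.14, adjusted p = 0.0823). Hspa1b (ENSMUSG00000090877, chromosome 17, 34956429 to 34959238) was at 1.16, 0.983, 0.805 and 1.000 CPM in control and 1.40, 1.60, 2.09 and 1.38 CPM in deletion pulldown (0.73, SE 0.18, adjusted p = 0.0823). Neither gene overlapped between genotypes, and pool 7 was the highest for both. Summed over the near-identical pair, the levels were 8.40, 9.18, 5.78 and 7.40 CPM against 10.1, 11.3, 14.3 and 10.8 CPM, a log2 fold change of 0.61 (SE 0.14, adjusted p = 0.0753); this sum was added after the data were seen. Pool 7 also held the highest summed vascular markers of deletion pulldown, 11.5 CPM against 3.65 to 7.72 CPM in pools 5, 6 and 8 and 2.48 to 5.52 CPM in control; their part in these values was not tested.

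**Figure D3:**
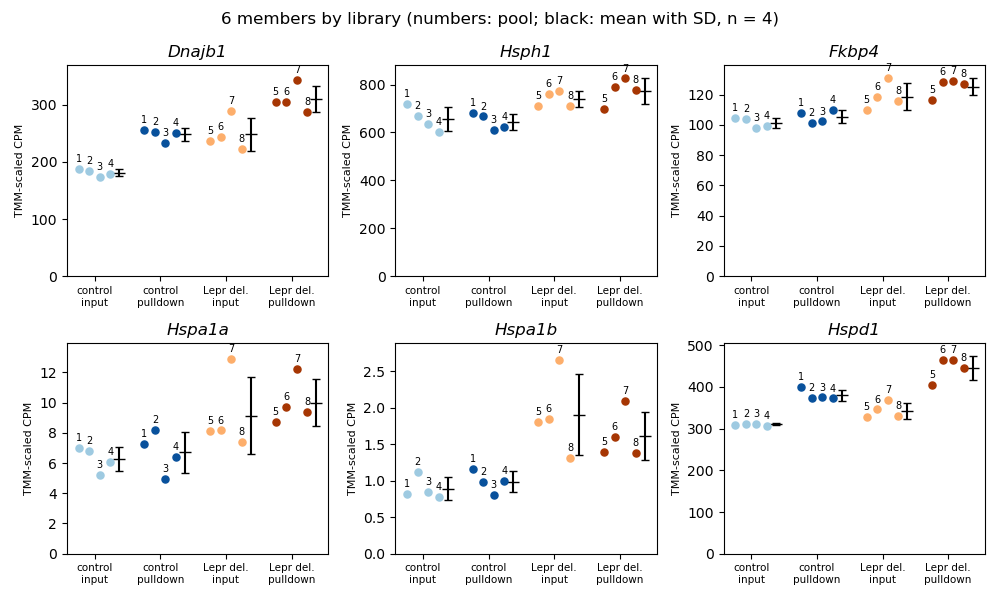
CPM of Dnajb1, Hsph1, Fkbp4, Hspa1a, Hspa1b and Hspd1 in every library, with the pool number at each point and the mean with SD per group (n = 4). For Dnajb1 the deletion pulldowns sit between 288 and 343 CPM and the control pulldowns between 233 and 257 CPM.

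Hspd1 missed the threshold narrowly, with 399, 373, 375 and 372 CPM in control and 404, 465, 464 and 446 CPM in deletion pulldown (0.24, SE 0.05, adjusted p = 0.0541), and its 96-base overlap with Hspe1 leaves the assignment of a few reads uncertain. Its partner Hspe1 showed 0.01 (95% interval -0.12 to 0.14). The other mitochondrial member, Hspa9, was at 0.21 (adjusted p = 0.0636). Constitutive HSP70 and HSP90 had smaller values: Hspa8 was at 2296, 2484, 2543 and 2568 CPM in deletion pulldown (0.16, adjusted p = 0.0964), Hsp90ab1 at 2041, 2285, 2234 and 2255 CPM (0.14, adjusted p = 0.111), and Hsp90aa1 gave 0.09 (95% interval -0.03 to 0.21). All 3 overlapped with the control pulldown levels given above. The CCT subunits gave 0.13 (Tcp1), 0.17 (Cct2) and 0.21 (Cct3, adjusted p = 0.0673), and the J-domain genes Dnajb4, Dnaja2 and Dnaja1 0.19, 0.19 and 0.20, none of which passed. Hsf1, at 29.5, 29.5, 29.7 and 28.8 CPM, overlapped control at 0.03 (95% interval -0.12 to 0.18), and Hsf2 gave -0.05. Bag1 had the lowest value, -0.17 (95% interval -0.30 to -0.04, adjusted p = 0.157). Cryab gave 0.53 (SE 0.20, adjusted p = 0.178) on low levels of 3.81 to 6.44 CPM, beside oligodendrocyte marker sums of 127 to 157 CPM in deletion and 121 to 141 CPM in control pulldown. Astrocyte markers summed to 136 to 166 CPM in deletion and 136 to 155 CPM in control pulldown, with positive values for 8 of 8 markers (median 0.23, none passing); the part of either cell type was not tested. Hspb1 gave 0.26 (SE 0.23). The remaining members, Hspa2, Hspa4, Hspa4l, Hspa12a, Dnajb2, Dnajb5, Dnajb6, Bag3, Ahsa1, Chordc1, Ptges3, St13, Stip1 and Cacybp, lay between -0.02 and 0.23 and did not pass.

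Without pools 1 and 5 the pulldown comparison called 23 members higher and none lower, with 35 positive values, where 9.35% of 16918 genes were called higher and 10.5% lower. Since pool 1 is the highest control pool and pool 5 the lowest deletion pool for the members, leaving them out widens the difference by construction. In that fit Dnajb1 stood at 0.36 (adjusted p = 0.00162), Hsph1 at 0.34 (0.000364), Hspd1 at 0.31 (0.000402), Fkbp4 at 0.30 (0.00105), Hspa1a at 0.69 (0.00759) and Hspa1b at 0.87 (0.00944). The largest member value was that of Cryab, 0.88 (adjusted p = 0.00103 in edgeR). Control pool 1, left out there, was its high control pulldown at 5.20 CPM. The part of glial cells in this value was not tested. By pool, 35, 17, 7 and 5 members were above the control mean in control pulldown pools 1 to 4 and 28, 33, 34 and 30 in deletion pools 5 to 8. Control pool 1 therefore had more members above the control mean than any deletion pool, with smaller offsets than pools 6 to 8.

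**Figure D4:**
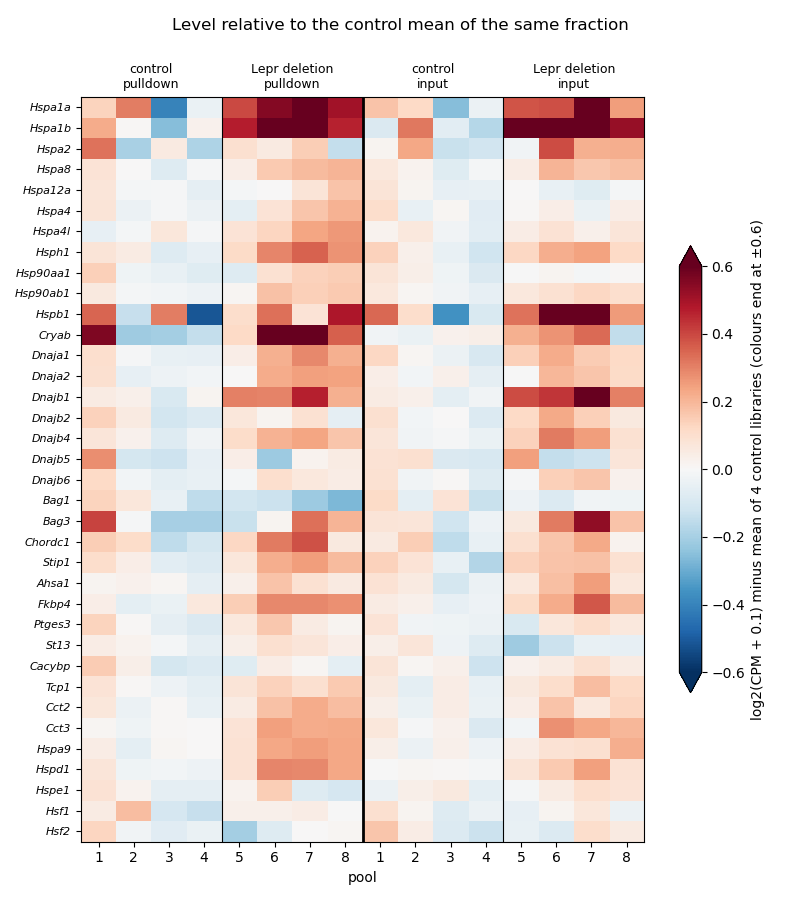
Difference of each library from the control mean of the same fraction, in log2(CPM + 0.1), for the 36 members (lines) and 16 libraries (columns), with colours that end at -0.6 and 0.6. Pools 6 to 8 are mostly above the control mean (medians 0.166 to 0.178 in pulldown), pool 5 less so (0.056), and pool 1 is the highest control pool (0.089).

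Input libraries put the same genotype question to the whole hypothalamus. Dnajb1 alone passed, 1 higher and none lower, against 0.135% of 17735 genes called higher and 0.0959% lower. It was at 187, 185, 174 and 178 CPM in control input and 238, 244, 289 and 223 CPM in deletion input, without overlap (0.45, SE 0.07, 95% interval 0.31 to 0.60, adjusted p = 0.011). The call held in 7 of 8 fits that leave out 1 library and was lost without control pool 3 (adjusted p = 0.0699) and on length-scaled counts (0.141). Over the members 32 had a positive value, against 49.3% of all genes, and the median was 0.12 against -0.00. Unadjusted p was under 0.05 in 21 members, all with a positive value, and in 2490 of all genes. In 9 members every deletion input exceeded every control input (4.05% of all genes): Hspa1a, Hspa1b, Hsp90ab1, Dnajb1, Dnajb4, Fkbp4, Tcp1, Hspa9 and Hspd1.

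Hspa1b again had the largest value, 1.10 (SE 0.24, adjusted p = 0.0872), from 0.824, 1.12, 0.840 and 0.772 CPM in control to 1.81, 1.84, 2.66 and 1.31 CPM in deletion input. The counts behind it were few, 45.0 to 60.3 in control and 78.2 to 157 in deletion input. Hspa1a went from 7.01, 6.78, 5.19 and 6.07 CPM to 8.11, 8.16, 12.9 and 7.41 CPM (0.55, SE 0.16, adjusted p = 0.183), and the pair summed gave 0.63 (SE 0.16, adjusted p = 0.145). Pool 7 was again the highest for both genes. Its vascular marker sum of 73.8 CPM was the highest of all inputs. The other deletion inputs held 39.6 to 45.3 CPM and control inputs 36.5 to 50.1 CPM. All 6 vascular markers tested had a positive value (median 0.57, none passing). Astrocyte markers summed to 2466 to 2809 CPM in control and 2151 to 2393 CPM in deletion input, without overlap. Of 8 astrocyte markers 1 passed as lower (0.0959% of all genes), and 3 had a positive value. The part of these cells was not tested. Hspb1 gave 0.69 (SE 0.24, adjusted p = 0.237), also highest in pool 7. Fkbp4 was at 105, 104, 97.9 and 99.2 CPM in control and 109.7, 118, 131 and 116 CPM in deletion input, apart but short of the threshold (0.23, adjusted p = 0.117). Hsph1 overlapped, with 719, 667, 634 and 601 CPM against 712, 761, 774 and 710.0 CPM (0.17, adjusted p = 0.203). Hspd1, at 327, 346, 368 and 329.8 CPM in deletion input, did not overlap control (0.14, adjusted p = 0.189). Hspa8, at 1922, 2152, 2089 and 2118 CPM, and Hsp90ab1, at 1825, 1860.0, 1903 and 1871 CPM, gave 0.15 and 0.10 without passing, and Hsp90ab1 alone of the pair did not overlap control. For Hsp90aa1 the value was 0.00 (95% interval -0.08 to 0.08) and for Hsf1, at 21.9, 23.0, 23.8 and 22.2 CPM, -0.00 (-0.13 to 0.13). Cryab gave 0.18 (adjusted p = 0.346). Without pools 1 and 5 19 members were higher and none lower, against 4.3% of genes called higher and 6.67% lower.

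Both genotype comparisons gave a positive value for 29 of the 36 members, but input and pulldown of a pool come from 1 lysate and are not independent. The share of all genes positive in both was not computed. The 11 members with a heat shock motif pair in the window had a median of 0.24 in pulldown and 0.17 in input, all 11 positive in both. The 18 without one had 0.10 in pulldown, 14 positive, and 0.12 in input, 16 positive. The run of 3 units went the other way: the 3 members with it had a median of 0.06 in pulldown and 0.08 in input, and the 26 without it 0.18 and 0.14. These are descriptions with no test, and Dnajb1 is among those without a match.

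**Figure D5:**
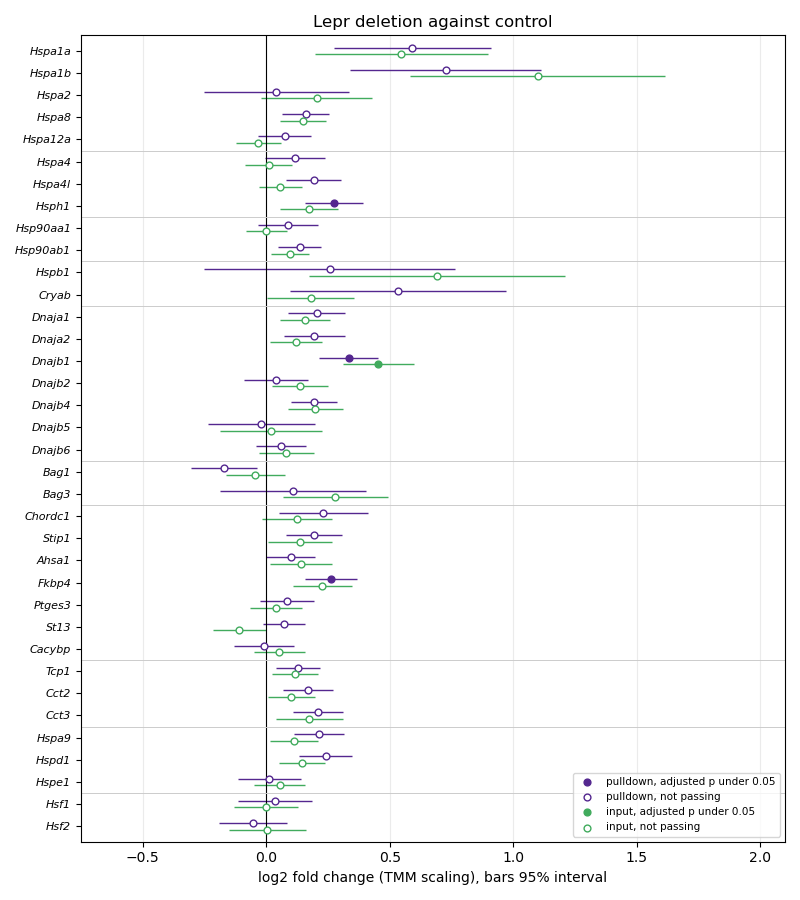
Log2 fold change of deletion over control for the 36 members in pulldown and in input, with bars of the 95% interval and filled points for an adjusted p under 0.05. Dnajb1 passes in both (0.33 and 0.45), Hsph1 and Fkbp4 pass in pulldown, and Hspa1b has the largest value in each (0.73 and 1.10).

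Whether pulldown over input differed between genotypes was tested directly. No member passed in the quasi-likelihood test with Benjamini-Hochberg adjustment, which called 2 of 18530 genes (0.0108%). At an unadjusted p under 0.05 there were 1660 genes, among them St13, which encodes an HSP70-binding co-chaperone (0.17, SE 0.06, adjusted p = 0.466). For Dnajb1 the difference was -0.13 (95% interval -0.33 to 0.07, adjusted p = 0.703) and for Hspa1b -0.39 (-1.02 to 0.25, adjusted p = 0.731). Hsph1 gave 0.09 (-0.09 to 0.26) and Fkbp4 0.02 (-0.13 to 0.18), so the calls of Hsph1 and Fkbp4 in pulldown and not in input are not shown to differ between the fractions. DESeq2 called 21 genes here and no member.

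Other genes of the folding machinery gave no calls between genotypes, in pulldown or in input. In pulldown no gene passed among 14 other CCT and prefoldin genes (8 positive, median 0.07, Cct7 with the smallest p at 0.22, adjusted p = 0.057), 18 other HSP90 co-chaperones (13 positive, 0.08), 21 other HSP70 and J-domain genes (13 positive, 0.03), 12 other mitochondrial chaperones and proteases (7 positive, 0.01), 5 other small heat shock genes (0 positive, -0.16) and 7 other heat-inducible genes (4 positive, 0.13). The 14 chaperones of the endoplasmic reticulum had no positive value in pulldown (median -0.16, none passing) and 3 positive values in input (median -0.06). Pulldown against input in control, which called 30.1% of all genes higher and 34.6% lower, gave 15 higher and 0 lower of the 21 HSP70 and J-domain genes. Their smallest p-values belonged to the ubiquitin ligase co-chaperone gene Stub1 (0.72) and the synaptic vesicle J-domain gene Dnajc5 (0.48). The counts were 9 and 3 of the 14 CCT and prefoldin genes (Pdcl3 -0.60, Vbp1 0.45), 9 and 1 of the 18 HSP90 co-chaperones (Nudcd3 0.41, Aarsd1 0.46) and 7 and 1 of the 12 mitochondrial genes (Clpp 0.51, Dnaja3 0.30). Small heat shock genes gave 4 and 1 of 5 (Hspb8 -0.91, Hspb6 0.47), heat-inducible genes 2 and 3 of 7 (Zfand2a 0.52) and reticulum chaperones 2 and 1 of 14 (Dnajc3 -0.48, Creld2 0.37).

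The authors' deposited table of comparisons, made with DESeq2, had 16 members higher and none lower at an adjusted p under 0.05 in knockout against wild-type pulldown, and 5 higher and none lower in input. The share of all genes called in the deposited table was not computed, so these member counts stand without a background. In the authors' deposited table Dnajb1 stood at 0.34 in pulldown and 0.46 in input, and Hspa1b at 0.73 (adjusted p = 0.0112) and 1.10 (0.0040). The DESeq2 setting run here called 15 and 5 members, beside 3 and 1 by edgeR's quasi-likelihood test; 4.17% and 1.22% of all genes were called higher by DESeq2 in pulldown and input.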

How the data were processed

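Hypothalamic RNA of 16 libraries in 4 groups of 4 pools was analysed from the deposited gene table. Its values are estimated counts, which the authors made with Salmon 1.10.1 against GRCm38, per the submitters' processing notes; the deposited TPM values come from the same quantification, and the strand setting and annotation are not given in the sources used here. The log2 fold changes and adjusted p-values of the authors' deposited table come from DESeq2 1.38.3, per the submitters' processing notes. Estimated counts were rounded and tested with edgeR 4.0.16 in R 4.3.3 (TMM factors, filterByExpr with a minimum count of 10 and total of 15, quasi-likelihood test, Benjamini-Hochberg adjustment over all genes tested, threshold 0.05). Intervals of 95% use the t quantile at the test's degrees of freedom. Each comparison was fitted on its own groups, 8 libraries, and the difference between genotypes on all 16. The fits were tested on simulated data. Alternatives were RLE factors, library totals, other filters, DESeq2 1.42.0, length-scaled counts, limma 3.58.1 on log2(TPM + 1) and log2(TPM + 0.1), removal of mitochondrially encoded genes, a fit on all libraries, a replicate block, each library left out, pools 1 and 5 left out, and Hspa1a and Hspa1b summed. The members, the gene lists and the removal of pools 1 and 5 were chosen with earlier results of these data known. Values in every library are given for members that passed between genotypes, for the 3 with the largest passing change in each direction in control pulldown against input, and for Hspa1a, Hspa1b, Hspa8, Hsp90aa1, Hsp90ab1, Hspd1, Cryab, Hspb1 and Hsf1; up to 2 passing genes are named per further list and comparison, and 1 such gene is not reported here.

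Input and pulldown of a pool come from the same lysate, per the labels' extraction protocol, so the block by pool is a true pairing. Over 8 pairs the deviations from the group mean correlated at 0.0596 to 0.435, and 7 inputs correlated best with their own pulldown. Replicates differed by more than counting noise (chi-square per degree of freedom 8.16 to 49.9 over 24 pairs). Pools are separate groups of animals, and whether they were processed on different days is not given in the sources used here. A count of 3 corresponds to 0.032 to 0.056 CPM, which covers counting error only. Positions are those of RefSeq genes on GRCm38.p6.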

Additional observations from a re-analysis of the deposited data

Results flagged for a closer look

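Over 144 checks of a member in a group of 4 libraries, 10 had a library far from the other 3 (a gap to the nearest that filled most of the range, by Dixon's test); chance alone gives about 7.2. Pool 1 accounts for 4 and pool 5 for 4 of them. In control pulldown, pool 1 was the high library for Cryab (5.20 CPM), Dnajb5 (12.4 CPM) and Hspd1 (399 CPM), and in control input for Ptges3 (263 CPM). In deletion pulldown, pool 5 was the low library for Dnaja2 (239.3 CPM), Fkbp4 (117 CPM), Cct3 (81.9 CPM) and Hspa9 (217 CPM), and pool 6 stood apart for Dnajb5 (8.79 CPM). In deletion input, pool 7 was the high library for Hspa1a (12.9 CPM). Fkbp4 in deletion against control pulldown was 0.26 with pool 5 and 0.30 without pools 1 and 5. No member's difference of enrichment between genotypes passed its test.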

How the results depend on the processing

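The block by pool changed no calls of members beyond the 3 named in the report; it gave 24 members higher in control, 5 lower in deletion libraries and 4 genes in the difference. Members were followed singly where their unadjusted p was under 0.05: 27 and 30 in pulldown against input (control, deletion), 20 and 21 between genotypes in pulldown and input, and 1 in the difference. Between genotypes none of these changed direction under any setting run. In pulldown against input, Dnajb5 turned positive with library totals (0.17 control, 0.037 deletion), on log2(TPM + 1) (0.68, 0.57) and on log2(TPM + 0.1) (0.74, 0.63). Hspb1 did so in control on the TPM scales (0.24, 0.33). The median shift over all genes from the fit reported was 0.55 (control) and 0.46 (deletion) with library totals. It was 0.93 and 0.86 on log2(TPM + 1), and 0.97 and 0.90 on log2(TPM + 0.1). Dnaja1 turned negative on length-scaled counts (-0.029, -0.022), as did St13 in control (-0.060). There the median shift over all genes was 0.018 in control and -0.0036 in deletion. The cause of the sign changes was not tested. The lower members of the control comparison numbered 2 with library totals, length-scaled counts and both TPM scales, and those of the deletion comparison 2 on both TPM scales.

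Between genotypes in pulldown (108 genes, 3 members higher) the counts were 266 genes and 5 members without a filter, 1065 and 15 with DESeq2, 16 and 0 on length-scaled counts, 21 and 0 on log2(TPM + 1), 19 and 0 on log2(TPM + 0.1), 508 and 6 with all 16 libraries and 3363 and 23 without pools 1 and 5; library totals gave 1 member and RLE factors 2. The share of calls that were higher was 61.1%, but 39.5% with library totals and 76.2% on log2(TPM + 1). In input (41 genes, 1 member) they were 108 and 3 with library totals, 261 and 5 without a filter, 380 and 5 with DESeq2, 11 and 0 on length-scaled counts, 20 genes on log2(TPM + 1), 23 on log2(TPM + 0.1), 2 members with all 16 libraries and 1957 and 19 without pools 1 and 5. Here 58.5% of calls were higher, 87.0% with library totals and 90.0% on log2(TPM + 1). The difference (2 genes) called 4 with RLE factors, library totals and log2(TPM + 1), 6 without a filter and on log2(TPM + 0.1), 21 with DESeq2, 0 on length-scaled counts and 87 without pools 1 and 5; its members with a positive value, 20, were 8 with library totals and 9 on both TPM scales.

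Leaving out 1 library gave 10812 to 11613 genes, 20 to 23 members higher and 3 to 4 lower in control, 10095 to 10753, 24 to 26 and 4 in deletion, 19 to 1262 genes and 0 to 16 members higher between genotypes in pulldown, 19 to 402 and 0 to 5 in input, and 1 to 5 genes in the difference.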

Other observations

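Immediate early genes, the transcription factors and regulators that neurons switch on within minutes of activity, gave 3 calls among 14 genes in deletion against control pulldown, where 0.391% of all genes were called higher and 0.249% lower. Nr4a3 was higher (log2 fold change 0.57, adjusted p = 0.0487 in edgeR), and Npas4 (-0.83, adjusted p = 0.0346) and Btg2 (-0.63, adjusted p = 0.0494) were lower. These genes were not followed singly under other settings. Calls over all genes in this comparison, 108, became 16 on length-scaled counts and 19 to 1262 with 1 library left out. In input Nr4a3 was the 1 call (0.44, adjusted p = 0.0213). In pulldown against input Fos had the largest value of the list, 0.55 in control and 0.64 in deletion libraries. Of the 14 genes 3 were higher and 1 lower in control, where 30.1% of all genes were higher and 34.6% lower. In deletion libraries 5 were higher and 2 lower, beside 28.8% and 32.8% of all genes. Chaperones of the endoplasmic reticulum had negative values in pulldown for all 14 genes, 3 with an unadjusted p under 0.05 and none passing, led by Dnajb9 at -0.34 (adjusted p = 0.0964). Without pools 1 and 5, 2 of the 14 immediate early genes were higher and 7 lower in pulldown (median -0.37), and 1 higher and 4 lower in input. In the same fit 11 of the 14 reticulum chaperones were lower in pulldown (median -0.29) and 5 in input. In that fit 10.5% of all genes were called lower in pulldown and 6.67% in input. Of the 36 members, 23 were higher in pulldown and 19 in input. The gene lists and the removal of pools 1 and 5 were chosen with earlier results of these data known. The shares of all genes are therefore no independent yardstick for the lists. Removal of the pools also widens the member difference by construction. Calls over all genes rose with it from 108 to 3363 in pulldown and from 41 to 1957 in input. Counts without these pools are therefore no separate support for the fit on all pools.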
